A study of Mus musculus with 43 samples.

Results

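Mouse intestinal organoids that had been irradiated and then given vehicle were compared by bulk RNA-seq with organoids that had received vehicle without irradiation. The members are 6 of the 43 samples of the series, 3 libraries in each group, taken by their labels and joined on gene symbol for genes averaging 1 FPKM or more (fragments normalized for transcript length and library size). All 6 libraries came from primary intestinal organoids of WT C57BL/6 mice. The irradiated group was given 4 Gy on day 4 and vehicle for 24 h from day 6, and was collected on day 7 (D7). The non-irradiated group had the same 24 h of vehicle with no irradiation and is labelled D7. Organoids given 2 ng/mL TGFB1 in place of vehicle, irradiated or not, provided the same contrast in 6 other libraries. Irradiated organoids with vehicle collected on day 11 (D11) provided 3 more libraries for levels set side by side. The series also holds single-cell and chromatin accessibility libraries, which were not analysed here.

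Intestinal organoids are cultures of epithelium that keep the crypt's hierarchy: Lgr5-positive stem cells divide, their daughters amplify, and the offspring become absorptive enterocytes or secretory cells (Paneth, goblet, enteroendocrine and tuft cells). Ionizing radiation breaks DNA and activates p53, which induces cell cycle arrest and death genes, and crypts recover through a phase in which surviving cells express genes of the fetal and wounded epithelium, many of them YAP targets. Enterocyte genes for fat absorption, digestion and detoxification are driven in large part by HNF4 factors, and genes of glycolysis and low oxygen by HIF factors.

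The non-irradiated and the irradiated libraries were deposited in different tables, which may have been scaled separately, so no test was made across them and irradiation cannot be told apart from anything else that differed between the tables. A gene is called higher or lower here only when all 3 irradiated vehicle libraries lay on the same side of all 3 non-irradiated ones and the mean log2(FPKM + 1) differed by at least 1, that is 2-fold. Differences are irradiated minus non-irradiated on that log2 scale, ± standard error, and values by library are FPKM in replicate order with means ± SD (n = 3). The 6 libraries summed to between 521391 and 567534 FPKM and held between 11040 and 11195 genes at 1 FPKM or more. Their numbers of reads are not known. Pearson's r of log2(FPKM + 1) across genes was 0.985 to 0.989 within groups (6 pairs) and 0.892 to 0.898 between them (9 pairs), and genes are not independent replicates. Nothing in the labels says that the replicates came from separate cultures, so the errors may be technical. Epcam, an epithelial adhesion protein, stood at 1071, 1107 and 1077 FPKM without and 617, 644 and 640.2 FPKM with irradiation. Of 18 immune, 14 mesenchymal and 14 endothelial or neural marker genes, 3, 1 and 0 reached the minimum level, and Ptprc, which marks blood cells, averaged 0.00881 and 0.0347 FPKM. The summed immune markers lay between 9.88 and 11.9 FPKM without and 7.23 and 8.47 FPKM with irradiation, with Cd68 called lower (-1.51) and Lyz2 higher (1.44), and their part in the results was not tested.

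Some genes separated the tables in a way that irradiation and the table itself would both give. For 120 of 11473 genes, all 6 non-irradiated D7 libraries, with vehicle or TGFB1, lay at least 2-fold from all 12 irradiated libraries of both days, 45 below and 75 above. These are said below to follow the tables. Rpl29, a ribosomal protein gene, read 0.28, 0.379 and 0.324 FPKM without irradiation and 1463, 1525 and 1481 FPKM with it, and no other gene differed more. Ribosomal protein genes have many near-identical copies between which reads can be split, and 22 of the 120 genes have such copies. Pla2g2a, a Paneth cell phospholipase that is known to be inactivated by a natural variant in C57BL/6 mice, read 4561, 4905 and 4979 FPKM in non-irradiated and 44, 39.5 and 46.2 FPKM in irradiated libraries. Pla2g2a was thus high in the non-irradiated libraries, which carry the same strain label as the others. Whether the organoid lines behind the tables differed was not tested. Defa6, a defensin gene, was near 0 in all 6 non-irradiated libraries and averaged 448 FPKM in irradiated ones. Among genes with near-identical copies, 20.2% of 332 tested were called, against 15.3% of 10903 without.

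**Figure D1:**
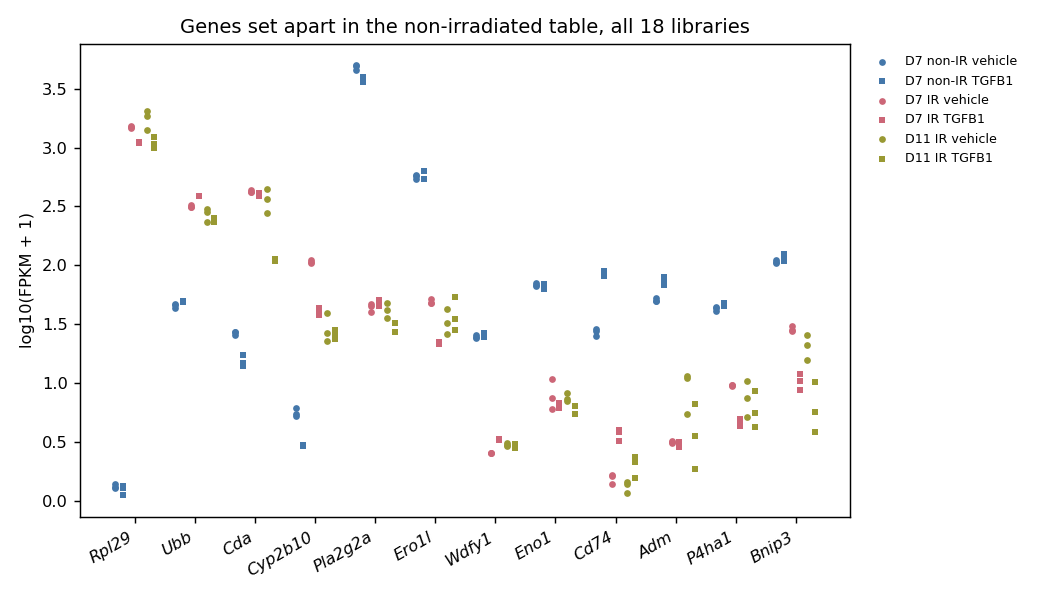
Values of 12 genes that follow the tables in all 18 bulk RNA libraries, as log10(FPKM + 1), with circles for vehicle and squares for TGFB1. For each gene the 6 non-irradiated libraries (blue) lie to one side of all 12 irradiated libraries of D7 (red) and D11 (olive), as for Pla2g2a, which is at least 3592 FPKM in the former and at most 49.7 FPKM in the latter.

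At D7 the irradiated organoids had higher RNA levels of many absorptive enterocyte genes. Lgr5 was lower, while Olfm4 and Ascl2, other stem cell genes, were higher short of 2-fold. Of 18 hypoxia and glycolysis genes 10 were called lower, and 5 of these follow the tables. Genes of the regenerating epithelium were split, with 9 of 26 called lower and 4, Clu among them, higher. Of 11235 genes tested, 901 (8.02%) were called higher, 834 (7.42%) lower, and 15.4% either way. Without the fold requirement the 2 groups did not overlap in 85.0% of genes, 40.7% higher and 44.3% lower, so a lack of overlap alone says little here. The median difference over all tested genes was -0.03. At least 8-fold differences were seen in 40 genes that were higher and 31 that were lower. Leaving out the genes that follow the tables left 856 called higher and 759 lower, and leaving out those with near-identical copies left 882 and 786.

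The 12 genes with the largest positive differences, among those with at least 10 FPKM in 1 group, included Rpl29, Defa6, Reg1, Dnase1, Ctrb1, Rbp2, Cyp2b10, Slc6a19, Syna, Cda and Aldh1a1. Those with the largest negative differences included Pla2g2a, Tmem237, Cd74, Adm, Myl9, BC064078, Kctd14, Defa17, Klhl23, Ero1l and Ndufb4. Of those named, Rpl29, Defa6, Reg1, Dnase1, Cyp2b10 and Cda follow the tables, as do all of the lower ones but Tmem237, Myl9 and Klhl23. Ctrb1, a digestive protease precursor known from the pancreas, read 2.79, 2.51 and 1.49 FPKM without and 73.1, 63.7 and 74.6 FPKM with irradiation, a difference of 4.47 ± 0.20. Syna, a syncytin of retroviral origin, averaged 0.366 ± 0.0121 and 21.2 ± 1.12 FPKM. Myl9, a myosin light chain, went the other way, with 65.9, 71 and 66.5 FPKM without and 2.71, 4.69 and 3.84 FPKM with irradiation, and at D11 it averaged 75.2 ± 19.6 FPKM. Tmem237, a ciliary membrane protein, averaged 342 ± 9.63 FPKM without and 14.9 ± 0.161 FPKM with irradiation.

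**Figure D2:**
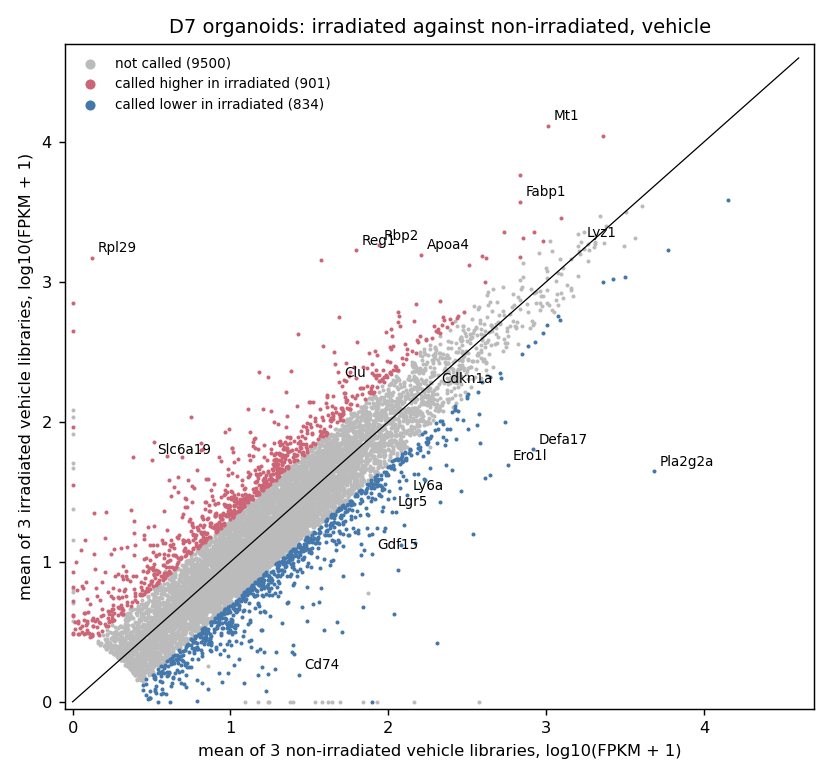
Mean FPKM of 3 irradiated vehicle libraries (vertical) against 3 non-irradiated vehicle libraries (horizontal) at D7, both as log10(FPKM + 1), with 1 point for each of 11235 tested genes. The 901 genes called higher lie above the diagonal and the 834 called lower below it, and grey points far from the diagonal are genes whose groups overlap or differ by less than 2-fold.

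Genes of fat absorption were higher in the irradiated organoids. Of 20 tested members, 15 were called higher and 0 lower, with a median difference of 1.53. Over all tested genes 8.02% were called higher and 7.42% lower. List counts near these shares, here and below, say little about the list. In bulk RNA, more or fewer cells of a type and more or less RNA per cell cannot be told apart, here and in every list that follows. Fabp2, the intestinal fatty acid binding protein, read 46.7, 47.7 and 48 FPKM without and 529, 584 and 579 FPKM with irradiation. Apoa4, an apolipoprotein of chylomicrons, read 156, 163 and 162 FPKM without and 1542, 1493 and 1646 FPKM with it. Both groups were tight and far apart, with ratios of means of 11.9 for Fabp2 and 9.74 for Apoa4. Fabp1, the liver-type fatty acid binding protein, was among the most abundant of these RNAs, at 675, 730.3 and 644 FPKM without and 3614, 3677 and 3903 FPKM with irradiation, a difference of 2.45 ± 0.06. Creb3l3, a transcription factor of lipid metabolism, differed by 2.73 ± 0.04, and Apoc3, Apoa1 and Apoc2, other apolipoproteins, by 2.16 ± 0.08, 2.08 ± 0.08 and 2.04 ± 0.10. Enzymes and transporters of triglyceride handling showed smaller differences. Mogat2, which builds diacylglycerol, averaged 52.5 ± 3.17 and 160.2 ± 2.59 FPKM, and Mttp, which loads lipid onto apolipoprotein B, 205 ± 7.95 and 463 ± 5.59 FPKM. Dgat2, Dgat1, Slc27a4 and Scarb1 were called higher with differences between 1.08 and 1.62. The members not called were Npc1l1, the cholesterol importer (0.84), Cidec (0.58), Sar1b (0.40), Plin2 (0.28) and Acsl5 (-0.30), the last being lower in all 3 irradiated libraries. Fabp6, the bile acid binding protein of the ileum, averaged 0.214 and 0.251 FPKM and was not tested.

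Digestive enzymes of the brush border followed with 12 of 18 tested members called higher, 0 lower and a median of 1.61. Treh, which splits trehalose, read 5.69, 5.96 and 5.35 FPKM without and 61.5, 64.8 and 63.9 FPKM with irradiation, a difference of 3.27 ± 0.04. Mme, the peptidase neprilysin, averaged 5.48 ± 0.31 and 61.8 ± 0.285 FPKM. Sis, the sucrase-isomaltase, read 136, 156 and 139 FPKM without and 530.1, 518 and 538 FPKM with it. Alpi, the intestinal alkaline phosphatase used as an enterocyte marker, read 432, 419 and 382 FPKM without and 1028, 958 and 1022 FPKM with it. Carbohydrate and peptide enzymes were thus both among the genes called, and Anpep, Ggt1, Enpep and Mep1b, which act on peptides, differed by 2.51, 2.4, 2.08 and 1.4. Lct, the lactase, stood at a low level, 1.82 ± 0.275 and 9.43 ± 0.773 FPKM. Mgam, a maltase, and Dpp4, a dipeptidyl peptidase, were not called, at 0.26 and -0.42. Cubn and Tmprss15 were below the minimum level.

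Among 20 transporters of nutrients and bile salts, 11 were called higher, 3 lower, and the median was 1.59. Slc6a19, the main carrier of neutral amino acids, read 2.16, 2.33 and 2.08 FPKM without and 50.9, 52.7 and 54 FPKM with irradiation, a ratio of means of 24. Slc6a20a (imino acids), Slc7a8 and Slc7a7 (amino acids) differed by 2.97 ± 0.04, 2.72 ± 0.03 and 1.53 ± 0.04. Slc51a and Slc51b, the subunits of the bile salt exporter, averaged 12 ± 0.205 and 2.8 ± 0.632 FPKM without and 39.8 ± 2.64 and 22.1 ± 0.794 FPKM with irradiation. Slc2a5, which carries fructose, averaged 13.3 ± 0.919 and 64.1 ± 1.16 FPKM, and Slc15a1, which carries peptides, 2.23 ± 0.161 and 10.8 ± 0.551 FPKM. The sugar carriers Slc5a1 and Slc2a2 were not called, at 0.75 and 0.89. The 3 lower members were the iron importer Slc11a2 (203 ± 11.6 to 69.2 ± 4.33 FPKM), the iron exporter Slc40a1 (63.5 ± 6.33 to 16 ± 1.91 FPKM), which follows the tables, and the nucleoside carrier Slc28a2 (6.38 ± 0.167 to 1.88 ± 0.0974 FPKM). Cybrd1, a reductase of dietary iron that was chosen after its values were seen, averaged 380.0 ± 15.9 and 69.6 ± 4.01 FPKM and also follows the tables.

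Retinoid and xenobiotic enzymes had the highest list median, 1.73, with 14 of 18 tested members called higher and 1 lower. Rbp2, which binds retinol in enterocytes, read 83.7, 87 and 86.6 FPKM without and 1729, 1858 and 1923 FPKM with irradiation, a difference of 4.4 ± 0.05. Bcmo1, which cleaves beta-carotene to retinal, averaged 8.81 ± 1.54 and 88.6 ± 2.44 FPKM, and Rdh7, a retinol dehydrogenase, 8.24 ± 0.356 and 83 ± 1.55 FPKM. Aldh1a1, which makes retinoic acid, read 14.3, 14.4 and 14 FPKM without and 217, 232 and 229.9 FPKM with it and is outside the list. Binding, cleavage and oxidation of retinoids were thus each represented. Of the drug-metabolizing enzymes, Cyp3a11 read 3.73, 4.5 and 3.47 FPKM without and 54.5, 51.9 and 60.1 FPKM with it, and Ugt2b5, a glucuronosyltransferase, averaged 3.1 ± 0.244 and 37.7 ± 1.17 FPKM. Cyp2b10 averaged 4.6 ± 0.471 and 107 ± 3.31 FPKM and follows the tables. The carboxylesterases Ces2a, Ces2e, Ces2c and Ces1f were called higher with differences from 1.23 to 2.29, whereas Ces1d was called lower (-1.21 ± 0.08). Genes of this kind belong to families of close relatives, so reads could be shared among Cyp3a, Ces and Ugt members.

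The promoters of Treh, Alpi and Cyp3a11 are shown because each holds CAAAGTCCA, the core bound by HNF4 factors, in the 250 bases before the start site. CAAAGTCCA was searched on both strands in the RefSeq promoters of build GRCm38.p6. Each is printed 5′ to 3′ on the gene's strand with the match in capitals, which in Treh reads on the opposite strand. Treh lies at chr9:44672983-44673232 (plus strand), Alpi at chr1:87101607-87101856 and Cyp3a11 at chr5:145879855-145880104 (both minus strand).
Treh: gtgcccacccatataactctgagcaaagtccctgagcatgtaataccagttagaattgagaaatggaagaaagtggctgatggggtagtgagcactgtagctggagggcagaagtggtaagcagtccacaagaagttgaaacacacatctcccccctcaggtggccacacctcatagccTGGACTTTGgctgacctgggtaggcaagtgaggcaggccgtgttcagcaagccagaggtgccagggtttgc
Alpi: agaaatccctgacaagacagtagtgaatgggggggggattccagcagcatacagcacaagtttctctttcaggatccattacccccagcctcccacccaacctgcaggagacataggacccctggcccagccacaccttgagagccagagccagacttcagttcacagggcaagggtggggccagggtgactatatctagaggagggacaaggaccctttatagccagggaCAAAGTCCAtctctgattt
Cyp3a11: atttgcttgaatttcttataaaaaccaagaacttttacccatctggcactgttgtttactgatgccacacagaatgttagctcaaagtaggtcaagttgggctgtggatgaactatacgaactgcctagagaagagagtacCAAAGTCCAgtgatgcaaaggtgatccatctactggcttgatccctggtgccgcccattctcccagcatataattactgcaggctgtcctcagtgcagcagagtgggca
The match starts at position -71 in Treh, -19 in Alpi and -109 in Cyp3a11, counted from the start site. CAAAGTCCA was in 0.38% of all 27025 promoters of the table, in 0.40% of the 9035 tested genes that matched the table, in 1.49% of 740 genes called higher and in 0.00% of 627 called lower. By list it was in 2 of 17 brush border promoters, 2 of 19 retinoid and xenobiotic promoters, 1 of 17 transporter promoters and 0 of 16 fat absorption promoters. A match is a string of letters, not a shown binding site.

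Other metabolic genes differed less as groups. Peroxisome and fatty acid oxidation genes had 4 of 13 called higher, 0 lower and a median of 0.53. Acot1, an acyl-CoA thioesterase, averaged 8.65 ± 0.337 FPKM without and 44.8 ± 2.02 FPKM with irradiation, and Ppara, a nuclear receptor that drives fatty acid oxidation, 6.03 ± 0.0151 and 14.9 ± 0.647 FPKM. Cholesterol synthesis genes had a median of -0.11, with 2 of 18 higher (among them Mvk, mevalonate kinase, at 1.57 ± 0.02) and 1 lower (Stard4, -1.01 ± 0.03, and -0.987 without irradiated replicate 3 or -0.998 without non-irradiated replicate 1, neither of which is called). Sqle, squalene epoxidase, averaged 150.3 ± 2.53 and 112 ± 3.49 FPKM. Glutathione and antioxidant genes had a median of -0.20 with 5 of 21 higher, among them the glutathione transferases Gsta1 (1.91 ± 0.08) and Gstm3 (1.26 ± 0.04), and 2 lower, Hmox1 (-1.34 ± 0.02), the inducible heme oxygenase, and Txnrd1 (-1.06 ± 0.03), thioredoxin reductase. Mt1 and Mt2, the metal-binding metallothioneins, were chosen after their values were seen. Mt1 read 977, 1019 and 1085 FPKM without and 12611, 13393 and 13301 FPKM with irradiation, and Mt2 636, 702 and 722 FPKM without and 5431, 6035 and 5889 FPKM with it. Mt1 averaged 3234 ± 1074 FPKM at D11, between the D7 groups. Genes named for the villus tip did not share a direction, with Apoa4 and Creb3l3 higher, Fos and Slc28a2 lower, and a median of -0.36 over 10 tested members.

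**Figure D3:**
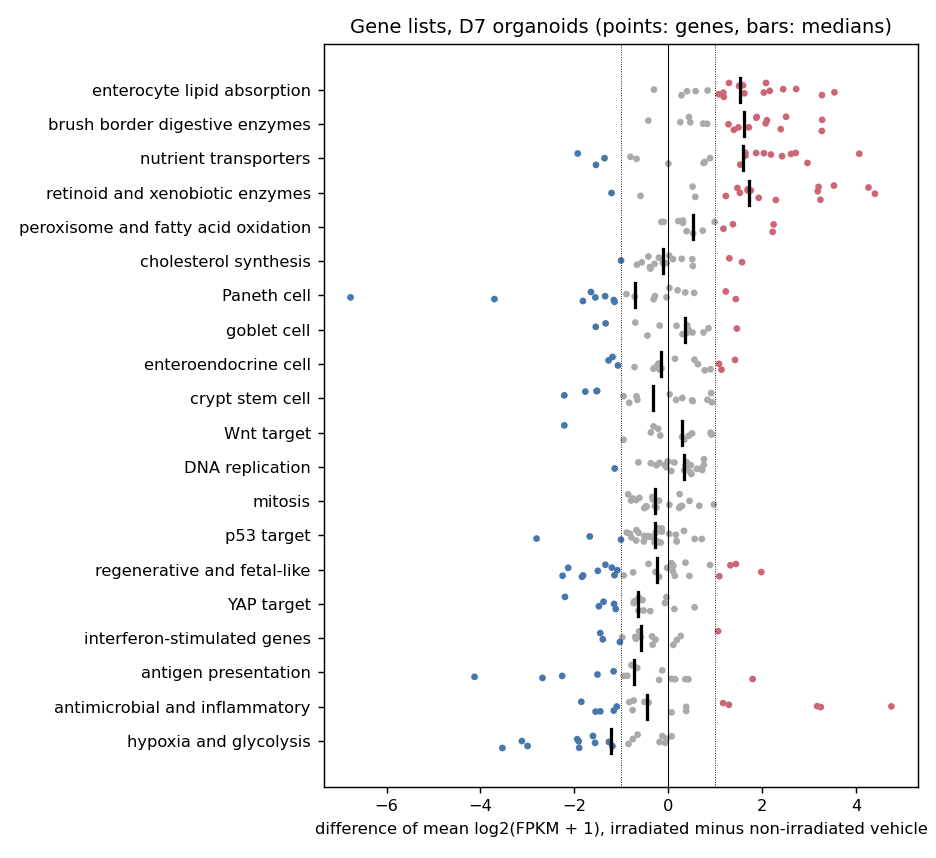
Difference of mean log2(FPKM + 1), irradiated minus non-irradiated vehicle, of the tested genes of 20 lists, with 1 point for each gene and a bar at each list's median. Red points are called higher, blue lower and grey neither; dotted lines mark the 2-fold limit. The 4 uppermost lists, all of enterocyte functions, have medians of 1.53 to 1.73, and hypoxia and glycolysis has the lowest at -1.23.

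Stem cell genes were split. Of 16 tested, 4 were called lower, 0 higher, and the median was -0.31. Lgr5, the receptor that marks crypt stem cells, read 103, 107 and 104 FPKM without and 21.9, 21.8 and 21.6 FPKM with irradiation, a ratio of means of 4.81 in favour of the non-irradiated libraries and a difference of -2.21 ± 0.02. Prom1, a stem and progenitor membrane protein, read 146, 139.7 and 146 FPKM without and 42.8, 38.7 and 43.3 FPKM with it. Slc12a2, a chloride importer of crypt cells, differed by -1.51 ± 0.03, and Cdk6, a cell cycle kinase, by -1.53 ± 0.08. All 4 were called, which by itself requires no overlap between groups. Olfm4, a secreted product of stem cells, was in contrast above the non-irradiated level in each irradiated library, with 405, 346 and 369 FPKM without and 655, 658 and 685 FPKM with irradiation, short of 2-fold. Ascl2, the stem cell transcription factor, read 16.6, 15.8 and 15.7 FPKM without and 31.2, 32.4 and 30.6 FPKM with it, likewise short of 2-fold. Smoc2 averaged 92.8 ± 5.18 and 94.6 ± 1.13 FPKM. At D11 Lgr5 read 68.5, 56.5 and 52.1 FPKM, between the D7 groups, and Prom1 read 74.1, 62.3 and 63.1 FPKM.

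Wnt and Notch genes showed few differences of 2-fold. Lgr5 was the only 1 of 13 tested Wnt targets called lower, 0 were called higher, and the list median was 0.30. Axin2, a feedback inhibitor of Wnt signalling, averaged 26.5 ± 1.37 and 50.8 ± 1.27 FPKM, and Ephb3, an ephrin receptor of the crypt, 8.61 ± 0.192 and 17 ± 0.655 FPKM. Rnf43 and Znrf3, which remove Wnt receptors, stood at -0.22 and -0.17. In the Notch pathway Dll1, a ligand, was called higher (1.27 ± 0.05) among 10 tested genes, whose median was 0.35. Hes1, the main Notch target in the crypt, averaged 102 ± 2.33 and 82.5 ± 2.89 FPKM.

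Proliferation genes did not share a direction. DNA replication genes had a median of 0.34 and mitosis genes one of -0.28, and only Pcna, the polymerase clamp, was called among 23 and 22 tested. Pcna read 130.2, 141 and 138 FPKM without and 62, 57.7 and 64.8 FPKM with irradiation. The helicase subunits Mcm2, Mcm3 and Mcm5 stood at 0.40, 0.69 and 0.47, while Mcm4 and Mcm6 stood at -0.04 and 0.06. Mki67, which marks cycling cells, read 48.3, 46.5 and 46.5 FPKM without and 56.4, 55.4 and 58.1 FPKM with irradiation, a small difference of 0.26 ± 0.03. Cdk1, the mitotic kinase, averaged 52.1 ± 1.86 and 30.3 ± 0.813 FPKM, and Plk1, another mitotic kinase, 51 ± 0.334 and 101 ± 2.05 FPKM, on opposite sides.

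Genes induced by p53 were not higher as a group. Of 30 tested targets, 0 were called higher and 3 lower, and the median was -0.28. The groups did not overlap in any but Ephx1, with 23 lower and 6 higher, where the shares over all tested genes were 44.3% and 40.7%. Cdkn1a, the arrest gene p21, read 191, 205 and 204 FPKM without and 174, 172 and 173 FPKM with irradiation. Mdm2, which p53 induces and which degrades it, read 20.02, 20.7 and 21.4 FPKM without and 18.7, 17.8 and 19.7 FPKM with it. For both, each irradiated library was below each non-irradiated one by a small amount. Gdf15, a stress cytokine, had the largest difference of the list, with 75.4, 78.1 and 79.4 FPKM without and 10.9, 11.1 and 8.89 FPKM with irradiation (-2.81 ± 0.10). Pmaip1, the death gene Noxa, averaged 44.2 ± 0.757 and 13.2 ± 0.439 FPKM. Trp53inp1 was also called lower at -1.01 ± 0.05, which became -0.986, -0.978 and -0.998 (not called) without non-irradiated replicate 3, irradiated replicate 2 or irradiated replicate 3. Fas, a death receptor, stood at 0.71, and Bbc3, the death gene Puma, at 0.33, both higher and not called. The D11 libraries averaged 151 ± 20.8 FPKM for Cdkn1a and 28.1 ± 6.07 FPKM for Gdf15. Every D7 library was taken at a single time after irradiation, so earlier levels were not analysed here.

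DNA damage response and repair genes were close to the median of all genes. Their median was -0.12, with H2afx, the histone phosphorylated at breaks, the only 1 of 24 called (106, 100.4 and 99.6 FPKM without and 223, 221 and 228 FPKM with irradiation). With quantile normalization its difference of 1.13 ± 0.03 became 0.993, and 0 of 24 were called. Atm and Atr, the damage kinases, stood at -0.16 and -0.41. Among 21 apoptosis genes the median was 0.02, and 2 were called higher, where 8.02% of all tested genes were. These were Bak1, a pore former of mitochondria, which read 69.5, 65.4 and 69.3 FPKM without and 241, 247 and 251 FPKM with irradiation, and Bad, a BH3 protein, which averaged 19.4 ± 1.9 and 52.5 ± 3.28 FPKM. Bax, the other pore former, averaged 135 ± 2.01 and 119 ± 5.73 FPKM, and Mcl1 and Bcl2l1, which inhibit death, stood at 0.28 and 0.51.

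Secretory cell genes differed among and within cell types. Paneth cell genes had 8 of 19 called lower, 2 higher and a median of -0.72. Of the 8, Pla2g2a and Defa17, those with the lowest differences (-6.77 and -3.7), follow the tables. Mmp7, which activates defensins, read 231, 230.1 and 234 FPKM without and 69.9, 71.2 and 79.4 FPKM with irradiation. Ang4, an antimicrobial ribonuclease, averaged 955 ± 46.6 and 428 ± 34.2 FPKM, and Mptx2, a pentraxin, 177 ± 7.35 and 59.6 ± 2.24 FPKM. Lyz1, the Paneth lysozyme, went against these, at 1679, 1675 and 1648 FPKM without and 1766, 1942 and 2048 FPKM with irradiation. The defensins split as well, with Defa24 at -1.82 ± 0.06, Defa17 at -3.7 ± 0.08, Defa21 at 1.44 ± 0.15 and Defa22 at 1.23 ± 0.09. Defensin genes are near-identical, and Defa20 was called lower only while non-irradiated replicate 2 was kept (-1.14 ± 0.31, and -0.89 without it), so single defensins are uncertain. Nupr1, a stress-induced chromatin protein, averaged 175 ± 8.42 and 68.2 ± 4.94 FPKM.

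Goblet cell genes had a median of 0.35, with 2 of 14 lower and 1 higher. The 2 lower ones were abundant secreted products: Tff3, a trefoil peptide, read 3172, 3231 and 3133 FPKM without and 1079, 1097 and 1091 FPKM with irradiation, and Spink4, a protease inhibitor, averaged 2640.5 ± 146 and 1046 ± 19.1 FPKM. Creb3l1, a transcription factor, was called higher at 1.46 ± 0.08. Muc2, the main secreted mucin, averaged 17.8 ± 0.699 and 20.3 ± 0.13 FPKM, and Atoh1, the secretory master regulator, 8.74 ± 0.197 and 11 ± 0.223 FPKM.

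Enteroendocrine hormones went both ways, with 3 of 17 genes higher, 3 lower and a median of -0.14. Gip, an incretin, read 80.1, 80.3 and 78.7 FPKM without and 197, 218 and 232 FPKM with irradiation, and Sst, somatostatin, 82.1, 87.6 and 102 FPKM without and 179.6, 213 and 206 FPKM with it. Fev, a transcription factor, averaged 3.09 ± 0.345 and 7.67 ± 0.792 FPKM. Nts, neurotensin, averaged 17.8 ± 1.82 and 7.25 ± 0.798 FPKM, and Tac1, the tachykinin precursor, 34.4 ± 1.54 and 13.7 ± 0.519 FPKM. Pyy was near the limit at -1.07 ± 0.20, and at -0.949 or -0.998 (not called) without non-irradiated replicate 3 or irradiated replicate 3. Chga, the granule protein common to these cells, averaged 40.8 ± 1.16 and 63.8 ± 1.4 FPKM. Tuft cell genes were low throughout, with Dclk1 at 1.78 ± 0.18 and 0.682 ± 0.105 FPKM and Trpm5 at 1.39 ± 0.154 and 1.91 ± 0.265 FPKM. Ltc4s was the 1 of 9 tuft genes called higher (1.13 ± 0.22, and 0.96 without non-irradiated replicate 1).

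**Figure D4:**
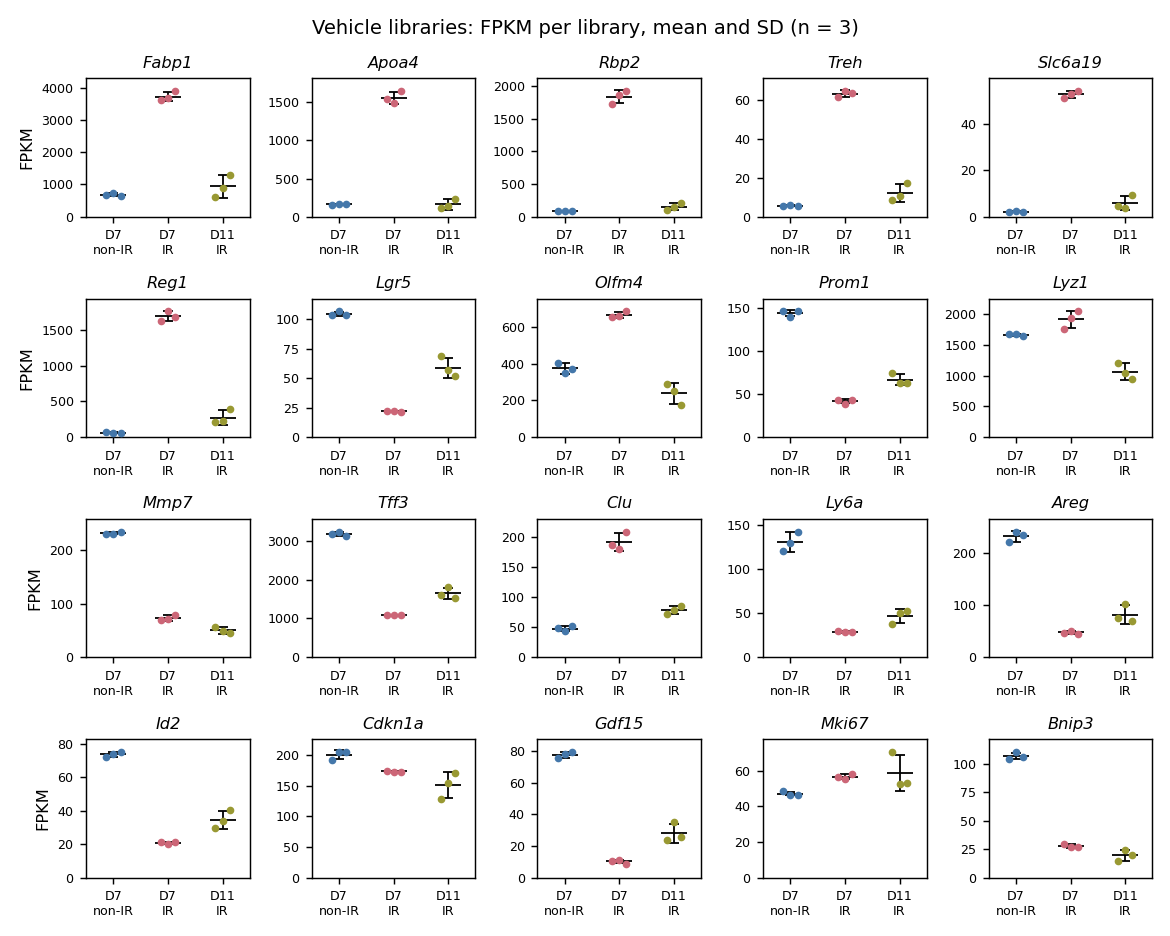
FPKM of 20 genes in the vehicle libraries, 1 point for each library, with lines at the mean and SD (n = 3); each panel's axis starts at 0. The irradiated D7 libraries stand above the non-irradiated ones for Fabp1, Apoa4, Rbp2, Treh, Slc6a19, Reg1, Olfm4, Lyz1, Clu and Mki67 and below them for the other 10, and the D11 libraries, from another table, are shown beside them.

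Genes of the regenerating and fetal-like epithelium were split, 9 of 26 lower and 4 higher, with a median of -0.23. Clu, which marks revival stem cells in irradiated intestine, read 48.5, 43.2 and 51.3 FPKM without and 186, 179 and 208 FPKM with irradiation, a difference of 1.98 ± 0.10. Ly6a, the surface protein Sca-1 of the regenerating and fetal epithelium, read 120.1, 130.1 and 142 FPKM without and 30.1, 28.8 and 28.3 FPKM with it, a difference of -2.13 ± 0.07. The 2 markers thus lay in opposite directions, and both were called. Areg, an EGF receptor ligand, read 221, 241 and 235 FPKM without and 47.5, 51.1 and 45.8 FPKM with irradiation, and Il33, an alarmin, averaged 4.67 ± 0.498 and 1.04 ± 0.466 FPKM. The annexins Anxa3 and Anxa5 differed by -1.84 ± 0.05 and -1.34 ± 0.07, and S100a10 and Emp1 by -1.2 ± 0.02 and -1.15 ± 0.02. Anxa1 stood at -0.42 and was not called. Il1rn, an interleukin antagonist, and Sprr2f, a cornified envelope protein, were called higher at 1.44 ± 0.08 and 1.32 ± 0.22, and Anxa8 at 1.09 ± 0.15 (0.98 or 0.99, not called, without non-irradiated or irradiated replicate 3). At D11 Clu averaged 78.6 ± 6.68 FPKM and Ly6a 47.2 ± 7.75 FPKM.

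YAP target genes were lower or not called. Of 17 tested, 5 were called lower, 0 higher, 14 had all irradiated libraries below the non-irradiated ones (44.3% of all tested genes did), and the median was -0.63. Ctgf and Cyr61, the matricellular proteins used as YAP reporters, averaged 8.66 ± 0.976 and 19.5 ± 1.02 FPKM without and 1.12 ± 0.387 and 6.93 ± 0.992 FPKM with irradiation. F3, tissue factor, read 88.5, 89.6 and 90.9 FPKM without and 31.7, 30.3 and 32.7 FPKM with it. Ankrd1, a further reporter, stood at -0.69 and Amotl2 at -0.72, neither called. The TEAD core GGAATG, searched on both strands, was in 8 of the 17 promoters found for the 23 listed YAP targets and in 12.6% of all promoters. The list was made of YAP targets, so its share says nothing about irradiation. GGAATG was in 10.4% of tested genes, 9.86% of those called higher and 13.2% of those called lower. Genes of the TGFB response in these vehicle libraries had a median of -0.33, with 4 of 18 called lower. The ligand Tgfb1 averaged 9.95 ± 0.853 and 3.43 ± 0.47 FPKM, while its receptors Tgfbr1 and Tgfbr2 stood at -0.54 and -0.35. Id2 averaged 73.7 ± 1.62 and 20.7 ± 0.653 FPKM, and Itgb6, an integrin that activates TGFB, 8.93 ± 0.417 and 3.35 ± 0.316 FPKM.

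Defence genes were called in both directions. The list of antimicrobial and inflammatory genes had 5 of 18 higher, 5 lower and a median of -0.46. Reg3b, an antimicrobial lectin, read 34.7, 36.7 and 41.3 FPKM without and 299, 320.3 and 431 FPKM with irradiation, and Reg3a 12.4, 11.7 and 11.8 FPKM without and 121, 114 and 133 FPKM with it. Reg1, of the same family, averaged 61.8 ± 7.1 and 1689 ± 67.8 FPKM and follows the tables. Reg3g was not called, at 137, 154 and 156 FPKM without and 191, 188 and 204 FPKM with it. The family therefore did not share a size of difference. Duox2 and Duoxa2, which make hydrogen peroxide, differed by -1.85 ± 0.06 and -1.55 ± 0.08, and Nos2, the inducible nitric oxide synthase, by -1.16 ± 0.06. Nfkbia and Tnfaip3, feedback inhibitors of NF-kB, differed by -1.45 ± 0.02 and -1.1 ± 0.03. Ccl25, a chemokine of the small intestine, and Il18, an epithelial cytokine, were called higher at 1.17 ± 0.04 (0.981, not called, with quantile normalization) and 1.29 ± 0.08.

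Interferon-stimulated genes had a median of -0.58, with 3 of 15 tested lower and 1 higher, and the other list members were under the minimum level. Bst2, a viral tether, averaged 31.9 ± 2.89 and 11.5 ± 0.732 FPKM, and Ifit1 4.15 ± 0.375 and 0.883 ± 0.0796 FPKM. Oasl2 was lower at -1.03 ± 0.11, and at -0.957 or -0.999 (not called) without irradiated replicate 2 or 3 and -0.912 with quantile normalization. Isg15, a ubiquitin-like protein, stood just short of the limit at -0.98 ± 0.22 and was called without irradiated replicate 3 (-1.16). Ifi27l2b was called higher at 1.06 ± 0.06, and stood at 0.946 (not called) with quantile normalization. The motif of interferon regulatory factors, searched on both strands, was in 11 of 20 promoters of this list and in 3.04% of all promoters. The list was made of interferon-induced genes, so its share says nothing about irradiation. The motif was in 2.39% of tested genes, 1.76% of those called higher and 2.87% of those called lower. For antigen presentation, 5 of 16 were lower, 1 higher, and the median was -0.72. Psmb8, an immunoproteasome subunit, read 14.6, 15.9 and 13.6 FPKM without and 2.18, 2.42 and 2.22 FPKM with irradiation. The class II genes Cd74 and H2-Ab1 averaged 26.2 ± 1.79 and 14.3 ± 2.56 FPKM without and 0.561 ± 0.151 and 1.38 ± 0.22 FPKM with irradiation, and both follow the tables. Class I genes were less far apart, with H2-K1 at 0.36, H2-D1 at -0.78 and B2m at 0.15. H2-T3, the thymus leukemia antigen of enterocytes, was called higher at 1.8 ± 0.04.

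Hypoxia and glycolysis genes had the lowest list median, -1.23, with 10 of 18 called lower and 0 higher. Vegfa, the vascular growth factor, read 85, 88.1 and 87.6 FPKM without and 29.6, 28.2 and 28.7 FPKM with irradiation. Hk2, the hexokinase induced by HIF, read 37.1, 38.7 and 37.9 FPKM without and 9.91, 9.96 and 8.52 FPKM with it, and Pgk1, a glycolytic kinase, 138, 138 and 138 FPKM without and 56.1, 59.3 and 55.5 FPKM with it. Bnip3, a mitophagy receptor, read 105, 110.5 and 106 FPKM without and 29.8, 26.6 and 27 FPKM with it. These 4 genes were called lower, which by itself requires every irradiated library to lie below every non-irradiated one. Ankrd37, Egln3, a HIF hydroxylase, and Ero1l, an oxidase of the endoplasmic reticulum, differed by -3.0 ± 0.11, -1.94 ± 0.04 and -3.53 ± 0.05. Bnip3, Ankrd37, Egln3, Ero1l and Eno1 follow the tables, and so do Adm, P4ha1 and Hif3a outside the list. For these, as for every other gene compared here, irradiation and the table cannot be told apart. The other 8 were not called. Among them Ndrg1 averaged 453 ± 14.8 and 476 ± 13.9 FPKM, Car9, carbonic anhydrase 9, 152 ± 3.55 and 145 ± 5.11 FPKM, and Ldha, lactate dehydrogenase, 2036 ± 32.8 and 1867 ± 29.6 FPKM.

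The promoters of Ankrd37 and Bnip3 are printed because both hold ACGTG, the core of the HIF response element, 2 times. They are from GRCm38.p6, both on the minus strand, at chr8:45999851-46000100 and chr7:138909507-138909756, with matches on either strand in capitals. In Bnip3 the 2 matches overlap in 1 palindrome.
Ankrd37: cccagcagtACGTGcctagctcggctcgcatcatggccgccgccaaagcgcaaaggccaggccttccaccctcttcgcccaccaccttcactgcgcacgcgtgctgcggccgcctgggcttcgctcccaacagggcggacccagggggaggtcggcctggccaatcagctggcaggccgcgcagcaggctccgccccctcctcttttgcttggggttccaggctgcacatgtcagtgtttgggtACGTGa
Bnip3: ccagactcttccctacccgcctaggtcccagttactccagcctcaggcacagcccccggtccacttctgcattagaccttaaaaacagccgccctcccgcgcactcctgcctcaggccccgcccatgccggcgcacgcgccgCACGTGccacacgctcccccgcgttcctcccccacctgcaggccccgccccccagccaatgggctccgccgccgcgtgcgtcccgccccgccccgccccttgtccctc
ACGTG was in 9 of 17 hypoxia and glycolysis promoters of the table, in 16.6% of all 27025 promoters, in 22.5% of tested genes, in 18.5% of genes called higher and in 27.6% of genes called lower. The motif was added after the values were seen. Genes of glycolysis and low oxygen are known to be driven by HIF factors, so the share in their list says nothing about irradiation.

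Unfolded protein response genes had 3 of 17 lower and 1 higher. Ddit3 and Trib3, of the ATF4 branch, differed by -1.53 ± 0.12 and -1.18 ± 0.06, and the chaperone Hspa5 stood at -0.32. Cytosolic ribosomal protein genes had 4 of 26 called lower and oxidative phosphorylation genes 2 of 24, where 7.42% of all tested genes were. Rpl29, which was called higher and follows the tables, is outside the ribosomal list. Ribosomal protein values are uncertain because of their copies: Rpl11 averaged 0.394 and 0.334 FPKM, far below Rplp1 at 3133 and 1813 FPKM. Among the epithelial genes Cdx1, an intestinal homeobox factor, was called higher (61.8, 59.99 and 61.9 FPKM without and 202, 212 and 204 FPKM with irradiation), while its relative Cdx2 averaged 144 ± 4.64 and 119 ± 2.27 FPKM.

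The same irradiation contrast in organoids given TGFB1 shares no library with the vehicle contrast but rests on the same 2 tables. With TGFB1, 1112 of 11403 tested genes (9.75%) were called higher and 1020 (8.95%) lower, with a median of -0.07 over all genes. Of the genes called higher with vehicle, 648 (71.9%) were also called higher with TGFB1, which is 58.3% of the latter. Of those called lower, 536 (64.3% and 52.5%) were shared, and 2 genes in each direction were called the opposite way. Any scaling factor shared by all libraries of a table drops out of the difference between the 2 contrasts, apart from the effect of the pseudocount on low genes, and that difference was tested with limma across 12 libraries. A difference between the tables in the response to TGFB1, whatever its cause, does not drop out. Irradiation and anything else that differed between the tables thus cannot be told apart in these terms either. The irradiation difference was not the same with TGFB1 as with vehicle in 6061 of 11411 genes (53.1%) at a Benjamini-Hochberg adjusted p under 0.05, more positive with TGFB1 in 2888 (25.3%) and more negative in 3173 (27.8%). At least 2-fold terms were found in 500 genes (4.38%). With 3 libraries in each group and little spread between them, many of these terms are small. The limma p-values rest on this spread, which may be technical because the labels do not name separate cultures.

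Most enterocyte genes had a more positive difference with irradiation under TGFB1 than under vehicle. The interaction was positive in 18 of 20 fat absorption genes and 16 of 17 brush border genes, with 0 negative in either, and the list medians were 2.16 and 2.57 with TGFB1. It was positive in 13 and negative in 4 of 19 nutrient transporters, and positive in 15 and negative in 2 of 19 retinoid and xenobiotic enzymes. Lct read 1.76, 2.13 and 1.59 FPKM in non-irradiated and 9.62, 8.57 and 10.1 FPKM in irradiated vehicle libraries, against 0.923, 0.989 and 0.873 FPKM in non-irradiated and 33.8, 38.3 and 37 FPKM in irradiated TGFB1 libraries, an interaction of 2.39 ± 0.11 (limma adjusted p = 7.3e-10). Sis had one of 2.14 ± 0.09 (limma adjusted p = 9.5e-10). Proliferation genes went the other way, with a negative interaction in 23 of 23 DNA replication and 22 of 22 mitosis genes. Their TGFB1 medians were -0.74 and -0.96, against 0.34 and -0.28 with vehicle, so the replication list lay above 0 with vehicle and below it with TGFB1. Mki67 read 21.6, 22.8 and 21.8 FPKM without and 11.3, 12.9 and 9.9 FPKM with irradiation under TGFB1 (interaction -1.16 ± 0.09, limma adjusted p = 1.6e-07). Paneth cell genes had a positive interaction in 14 of 19 genes and a negative one in 0, and enteroendocrine genes in 16 of 17 and 0. Over all genes tested, 25.3% were positive and 27.8% negative. The Paneth and enteroendocrine medians were 0.54 and 0.90 with TGFB1 against -0.72 and -0.14 with vehicle.

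The largest positive terms among genes called in the vehicle comparison were those of Pyy, a gut hormone, and Nos2. Pyy was low with vehicle, at 3.79 ± 0.874 FPKM without and 1.27 ± 0.344 FPKM with irradiation, and its vehicle call was near the limit. Under TGFB1 Pyy averaged 40.5 ± 2.29 FPKM without and 368 ± 71 FPKM with irradiation (interaction 4.21 ± 0.23, limma adjusted p = 2.1e-07). Nos2 averaged 10.2 ± 0.62 and 3.99 ± 0.268 FPKM with vehicle and 2.55 ± 0.242 and 13.1 ± 1.4 FPKM with TGFB1 (interaction 3.15 ± 0.11, limma adjusted p = 5e-11). Both were lower in irradiated vehicle libraries and higher in irradiated TGFB1 libraries. The most negative terms were those of Gkn3, a gastrokine, and Sprr2f. Gkn3 averaged 2.68 ± 1.2 and 13.3 ± 0.605 FPKM with vehicle and 135 ± 16.5 and 62.7 ± 11.3 FPKM with TGFB1 (interaction -3.12 ± 0.34, limma adjusted p = 6.6e-05). For Lgr5 the irradiation difference was -2.21 with vehicle and -3.04 with TGFB1, and for Clu it was 1.98 and 1.17 (interactions -0.83 and -0.82). For hypoxia and glycolysis the median was -1.90 with TGFB1, and 16 of 18 genes had a negative interaction and 1 a positive one.

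**Figure D5:**
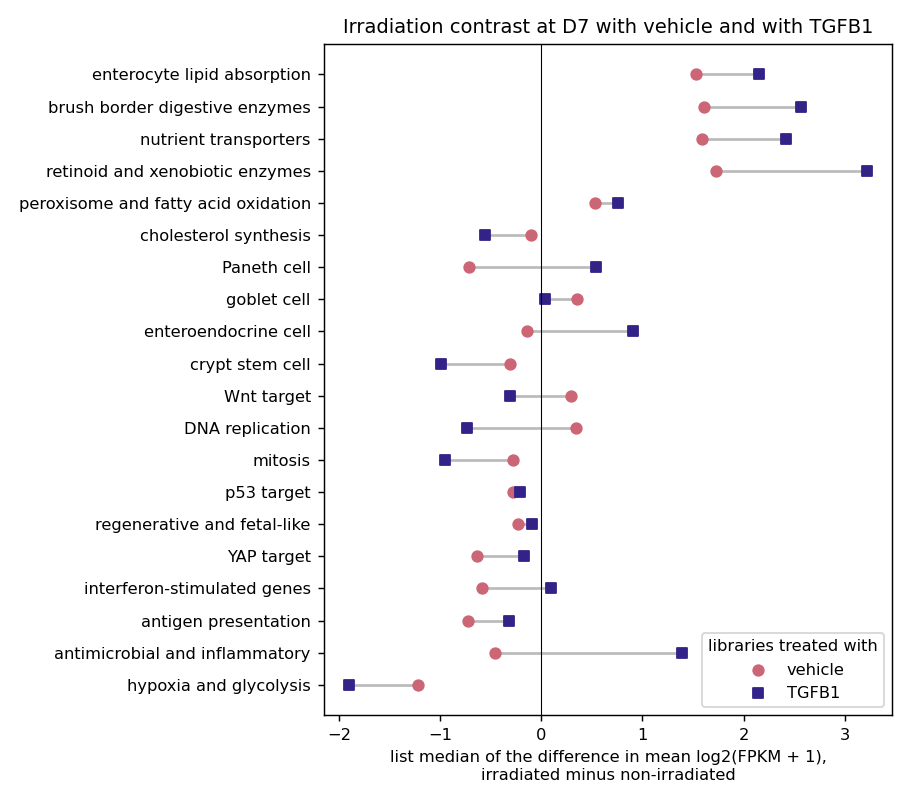
Medians of 20 gene lists of the difference of mean log2(FPKM + 1), irradiated minus non-irradiated at D7, in vehicle libraries (circles) and TGFB1 libraries (squares). The enterocyte lists lie farther to the right with TGFB1, up to 3.22 for retinoid and xenobiotic enzymes, and DNA replication lies at 0.34 with vehicle and at -0.74 with TGFB1.

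At D11, in another table, the enterocyte RNAs Fabp1, Apoa4 and Rbp2 in irradiated vehicle organoids were nearer to the non-irradiated than to the irradiated D7 level, without a test. Fabp1 read 622, 885 and 1307 FPKM, Apoa4 107, 136 and 236 FPKM and Rbp2 96.5, 149.9 and 214 FPKM. The libraries of D11 spread more than those of D7 in these genes, with replicate 3 the highest for each of the 3. Reg3b averaged 43.9 ± 15 FPKM and Mt2 1685 ± 599 FPKM. Other genes lay near the irradiated D7 level or below it: Mmp7 read 56.7, 49.3 and 44.7 FPKM, Hk2 averaged 10.5 ± 1.3 FPKM and Slc11a2 26.7 ± 8.93 FPKM. Nos2 and Myl9 at D11 averaged 13 ± 1.51 and 75.2 ± 19.6 FPKM, above both D7 means. The table, the day and the age of the culture cannot be told apart in these levels.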

How the data were processed

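RNA was extracted from organoids with a column kit, per the labels' protocols. The submitters' processing notes name TopHat2 2.1.0, Cuffnorm 2.2.1 and Cuffdiff 2.2.1 and the builds mm9 and GRCm39, with no role given. The authors deposited FPKM per gene, in separate tables for non-irradiated D7, irradiated D7 and irradiated D11 libraries, so read counts and depth are unknown and the tables may be scaled separately. Tables were joined on symbol (23951 genes), log2(FPKM + 1) was taken, and genes averaging 1 FPKM or more over the libraries compared were kept. Calls needed 2-fold and no overlap between groups of 3. No test compared libraries of different tables directly. The interaction of irradiation and TGFB1 was fitted with limma 3.58.1 in R 4.3.3 (trend and robust empirical Bayes, 12 D7 libraries, Benjamini-Hochberg adjusted p under 0.05), after the scripts were tested on simulated data. Other steps used Python 3.11.15 with pandas 2.3.3. Named genes were the 12 with the largest difference in each direction among called genes averaging 10 FPKM or more in the higher group (short RNAs and predicted genes not named), the 5 called genes with the largest interaction in each direction, a fixed panel, and members of 34 gene lists; a few genes that this rule selects are not reported here. The comparison and the lists were chosen with earlier results of these data known; genes given as chosen after their values were seen, the ACGTG motif, and the leaving out of genes with copies or that follow the tables came later. Alternatives were other scalings, pseudocounts, filters, folds and single libraries left out. Replicate numbers did not pair libraries. Peak files were not used, because their build is not that of the gene tables.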

Additional observations from a re-analysis of the deposited data

Results flagged for a closer look

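The irradiation difference at D7 differed between vehicle and TGFB1 organoids, by the limma interaction term at an adjusted p under 0.05, in 6061 of 11411 genes and in the named genes given here, each with its term on the log2(FPKM + 1) scale. A positive term means a more positive irradiation difference with TGFB1. Irradiation and anything else that differed between the tables cannot be told apart in these terms.

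Among genes called in the vehicle comparison, the largest positive terms were 4.21 for Pyy and 3.15 for Nos2, then 2.39 for Lct, 2.23 for Grm4, a glutamate receptor, and 2.2 for Ms4a18. Grm4 averaged 11.1 and 0.363 FPKM with vehicle, without and with irradiation, and 1.55 and 0.345 FPKM with TGFB1. The most negative terms were -3.12 for Gkn3, -2.52 for Sprr2f, -2.3 for Rbp7, a retinol binding protein, -2.21 for Ak4, a mitochondrial adenylate kinase, and -2.17 for Cited1, a transcriptional cofactor. Rbp7 averaged 3.2 and 28.8 FPKM with vehicle, without and with irradiation, and 0.116 and 0.616 FPKM with TGFB1. Both of its TGFB1 means were under 1 FPKM, where the pseudocount of 1 shrinks differences, so its term is uncertain. Ak4 averaged 44.3 and 16.7 FPKM with vehicle and 41.8 and 2.64 FPKM with TGFB1, and it follows the tables.

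Among genes fixed as a panel, the enterocyte genes Sis, Fabp1, Alpi and Apoa4 had terms of 2.14, 1.4, 0.97 and 0.73. The stem and cycling genes Ascl2, Mki67, Lgr5 and Olfm4 had terms of -1.24, -1.16, -0.83 and 0.81, so that Olfm4 lay opposite to the other 3. The secretory genes Chga, Lyz1 and Dclk1 had terms of 0.82, 0.74 and 0.64. Ctgf, Clu, Ly6a and Anxa1, of the YAP and regenerative lists, had terms of -1.54, -0.82, -0.40 and -0.29. The defence genes Reg3g and Isg15 had terms of 1.96 and 0.97, and H2-Aa had one of -1.16. The p53 targets Ccng1, Mdm2 and Bax had terms of 0.63, 0.38 and 0.14. The Bax term lost its call in 8 of the alternatives: with all 18 libraries, with ordinary empirical Bayes, and without irradiated vehicle replicate 1 or 2, irradiated TGFB1 replicate 1, non-irradiated vehicle replicate 3 or non-irradiated TGFB1 replicate 1 or 3, where its size lay between 0.108 and 0.137. Ly6a lost its call when all 18 libraries were fitted, and H2-Aa and Rbp7 with a pseudocount of 0.1.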

How the results depend on the processing

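The number of genes called higher and lower with vehicle stayed within 1.5 times of 901 and 834 under other scalings, pseudocounts and minimum levels, and was 885 to 917 and 815 to 861 with single libraries left out. Requiring 1.5-fold gave 2134 and 2302, and 3-fold 277 and 192. With TGFB1 the same settings gave 2237 and 2621, and 426 and 258. Scaling moved the median of all genes by 0.03 (median ratio), -0.05 (upper quartile) and 0.01 (quantile), and the share of called genes that were higher from 51.9% to 55.6%, 45.8% and 52.9%. The interaction was called in 5683 to 5914 genes with single libraries left out and in 4866 with all 18 libraries, against 6061. Terms of at least 2-fold numbered 785 with a pseudocount of 0.1, against 500.

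The median of the enteroendocrine list (-0.14) became 0.56 with a minimum of 5 FPKM, where fewer genes are tested, and lay between -0.137 and 0.0521 with single libraries left out, at 0.0521 and 0.0117 without non-irradiated replicates 2 and 3. The apoptosis median (0.02) became -0.0440 with upper-quartile scaling and -0.0422 with quantile normalization, and lay between -0.0105 and 0.0333 with single libraries left out, being -0.0105 without irradiated replicate 1 and -0.0077 without non-irradiated replicate 2. The Mmp7 interaction (0.05, not called) was -0.0511 with quantile normalization. The cause of these changes was not tested. Of 352 list medians under alternatives, 254 stayed within the spread between replicates, 91 moved further and 7 changed sign. For the 48 genes named for the size of their difference or in the fixed panel, no vehicle difference changed sign in 573 values, and calls of Dclk1 (-1.27 with a pseudocount of 0.1) and Isg15 changed in 4. Of 556 tested members of the lists, 169 of them called, 14 lost their call and 19 gained one under another scaling, a pseudocount of 0.1 or without 1 library, and 0 turned direction. Beside those given with their genes above, Mttp (0.999), Pyy (-0.965) and Trp53inp1 (-0.950) were not called with quantile normalization, nor Stard4 (-0.970) and Trp53inp1 (-0.975) with median-ratio scaling. Plk1 (1.007) was called with median-ratio scaling, Isg15 (-1.03) with upper-quartile scaling, and Ankrd1 (-1.002) and Isg15 (-1.31) with a pseudocount of 0.1.

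Libraries of the same replicate number did not deviate together. Their correlations ran from -0.236 to 0.212, 3 of 18 pairs were over 0.1, and 4 of 12 libraries correlated best with their own number. With the replicate number as a block the interaction was called in 5967 genes. No paired analysis was possible for the vehicle and TGFB1 contrasts because these results come from no test: calls rest on fold and overlap alone. Read depth is unknown, so its limit on low genes could not be given.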
